A study of Mus musculus with 6 samples.

Results

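The genes of the plasma membrane and lysosomal amino acid transporter families were described in mouse regulatory T (Treg) cells grown with or without sorafenib (Sora). They were chosen by symbol, as the genes of the Slc1a, Slc6a, Slc7a, Slc36a, Slc38a and Slc43a families with Slc3a1 and Slc3a2, leaving out Slc7a11, which gave 48 genes of 22939 in the count table. RNA was sequenced from 3 libraries of control Treg cells (ctrl-Treg) and 3 of Sora-treated Treg cells (Sora-Treg). By the methods of the study, naive CD4+ T cells of Foxp3-GFP knock-in mice, which are on a C57BL/6J background, were stimulated in both groups through CD3 and CD28 with TGF-β1 and with antibodies that block IFN-γ and IL4, Sora was added at the start of culture, and GFP+ cells were sorted for RNA-seq. The Sora concentration and culture time of these 6 libraries were not given in the sources used here, nor whether the replicates came from separate mice. Cells made in culture with TGF-β1 are a model of induced Treg cells, and not of those that mature in the thymus.

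Amino acids cross membranes through carriers that differ in cargo and in driving force. Activated T cells are known to raise several of them, since growth and division need leucine, glutamine, arginine and serine. Slc7a5 exchanges large neutral amino acids and reaches the cell surface only when bound to the CD98 heavy chain, Slc3a2. Slc1a5 and members of the Slc38 family bring in glutamine, and Slc7a1 brings in arginine and lysine. When amino acids run short, the kinase Gcn2 leads to translation of the factor Atf4, which induces many transporter genes, and sensors at the lysosome lower the activity of mTORC1. The symbol rule also admits carriers of other cargo, among them Slc6a8 for creatine, Slc6a3 and Slc6a4 for monoamines, Slc6a12 for betaine and Slc43a3, a nucleobase transporter, so the name amino acid transporters did not hold for every gene.

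Library totals were between 30727686 and 37717324 counts, at which a floor of 3 counts was worth 0.0795 to 0.0976 CPM (counts scaled to a fixed library size). All 6 T cell and all 5 Treg marker genes were detected in every library. Their summed levels were 1820 to 1834 and 2981 to 3026 TMM-scaled CPM in ctrl-Treg, against 2407 to 2482 and 5733 to 5884 CPM in Sora-Treg libraries. Of these genes, 6 of 6 and 4 of 5 were called higher in Sora-Treg cells, beside 29.7% of all tested genes. Most of the rise in the Treg sum was in Il2ra (1934 CPM in ctrl-Treg against 3795 CPM in Sora-Treg cells) and Ctla4 (383 against 1108 CPM). Foxp3 had 259 against 272 CPM with overlapping groups, and Ikzf2 was not called. The part of these marker changes in the transporter levels was not tested. The summed level of 9 myeloid genes was 106, 104 and 27.8 CPM in ctrl-Treg libraries against 24.4, 46.8 and 22.6 CPM in Sora-Treg libraries, so that ctrl-Treg libraries 1 and 2 stood apart, with 8 of the 9 genes at least 2-fold above library 3. Of 5 B cell genes, 4 were tested and all 4 were lower in Sora-Treg cells, with a summed level of 9.71 to 10.7 CPM in ctrl-Treg and 6.09 to 7.68 CPM in Sora-Treg libraries. The 2 CD8 T cell genes summed to between 12.6 and 15.1 CPM. The defining natural killer cell and erythroid genes had at most 21 and 16 counts in any library. All 6 cell cycle genes were lower in Sora-Treg cells, at 1053 to 1084 CPM in sum against 1597 to 1644 CPM. In these sorted but bulk samples, fewer cells of a kind and less RNA per cell cannot be told apart.

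Of the 15 transporters with a mean of at least 20 TMM-scaled CPM, 8 were lower in Sora-Treg cells, 3 were higher and 4 did not pass the test. The share called among all genes at that level was not taken, so nothing is read from these counts. Slc7a3, an arginine and lysine transporter, fell the most of the 30 genes tested. Of the 48 genes, 30 passed the filter on low counts and were tested. With the quasi-likelihood test of edgeR, 12 of the 30 were lower (40%) and 6 higher (20%) at an adjusted p under 0.05, beside 29.9% and 29.7% of all 13463 genes tested. In all, 59.6% of all tested genes passed in one direction or the other, so that a passed test is common in these data. The genes past a 2-fold difference, called differentially expressed genes (DEGs), were 4 lower members (Slc7a3, Slc43a1, Slc6a9 and Slc43a3) and 3 higher ones (Slc38a3, Slc6a19 and Slc1a1), where 4.97% and 6.3% of all tested genes were DEGs in these directions. The 3 that rose had at most 24 counts in any library and passed the filter only through the Sora-Treg libraries. They are also among the 6 called higher, so nothing is read from either number beside the share of all genes. The 4 that fell reached between 225 and 3835 counts. The groups did not overlap for 21 of the 30, beside 63.7% of all tested genes. The median log2 fold change was -0.33 over the 30 and 0.00 over all tested genes. With libraries scaled by their totals alone, which moved the median of all genes to -0.12, 18 members were lower and 4 higher, beside 41.7% and 21.3% of all genes under that scaling. Without ctrl-Treg libraries 1 and 2, which held the most myeloid transcripts, 11 of 32 members tested were lower and 5 higher, of which 4 and 2 were DEGs, beside 20.8% lower and 22.1% higher of all genes in that fit. Higher DEGs numbered 1 without ctrl-Treg library 1, and lower DEGs 7 without Sora-Treg library 2. Whether the lower level of cell cycle genes has a part in the lower transporter levels was not tested. With 3 samples against 3, the smallest p that an exact two-sided permutation test allows for 1 gene is 0.1, and the calls rest on the fit across all genes.

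**Figure D1:**
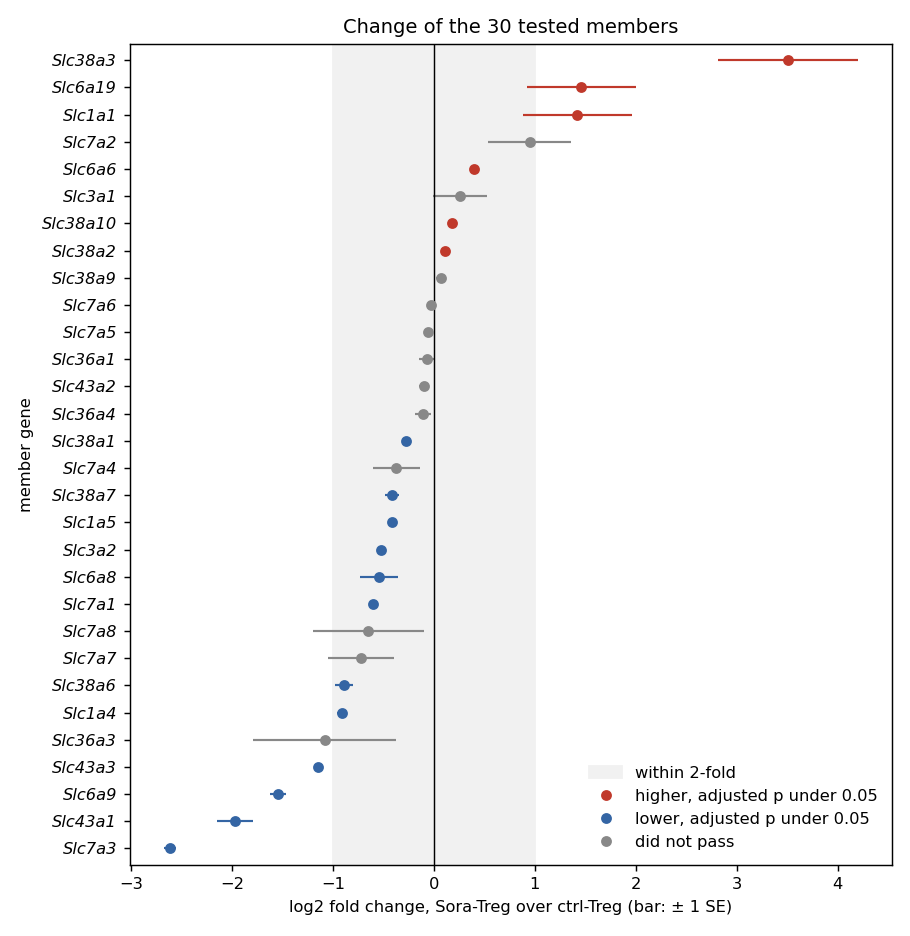
Each point is the log2 fold change of 1 of the 30 tested members, Sora-Treg over ctrl-Treg, with a bar of ± 1 SE from edgeR on 3 libraries against 3, and grey shading marks changes within 2-fold. Slc7a3 lies furthest to the left at -2.61, the lower calls have short bars, and the 3 higher DEGs at the top have wide ones.

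Promoter sequence was read for the members, whether or not they fell, since several transporter genes are known targets of Atf4, which binds with C/EBP partners to an element of the form TGATGNAA, and of Myc, which binds the E-box CACGTG. A RefSeq promoter window (GRCm38.p6, 250 bases before to 50 after a transcript start) was found for 37 of the 48 genes, searched on both strands. Of the 11 without one, Slc7a3, Slc43a3, Slc1a5, Slc38a1 and Slc6a8 were lower, Slc38a3 and Slc6a6 were higher, and the rest were Slc7a5, Slc7a2, Slc7a4 and Slc36a2. TGATGNAA was found in 3 of the 37, Slc1a4, Slc6a21 and Slc7a7, where 4.51% of 27025 genes hold it. The 7 letters TGATGCA, which overlap it, were found in 4 (Slc1a4, Slc1a7, Slc6a9 and Slc7a7), where 3.63% of genes hold them. CACGTG was found in 8 of the 37, among them Slc43a1, Slc38a7 and Slc36a1, where 8.09% of genes hold it. The other 5 hits were in genes with at most 2 counts in any library. Among the 20 tested members with a window, the 3 motifs were found in 2, 3 and 3, beside 2.78%, 2.44% and 11.4% of tested genes. Matches were not limited to genes that fell, since Slc7a7 and Slc36a1 did not pass the test and Slc6a21 and Slc1a7 were not tested. Genes with several windows had more chances of a match, and a match in letters is a description, not a binding site. The windows of 3 lower genes with a match, chosen after their values were seen, are printed from 150 bases before to 20 after the start, 5′ to 3′ on the gene's strand, with the match in capitals. In Slc1a4 (chr11:20332694-20332863, minus strand) the opposite strand of TGATGNAA runs from base -4 to base 4, across the start. For Slc6a9 (chr4:117849200-117849369, plus strand) the opposite strand of TGATGCA runs from base -123 to -117. For Slc43a1 (chr2:84840173-84840342, plus strand) the E-box runs from base -64 to -59.
Slc1a4: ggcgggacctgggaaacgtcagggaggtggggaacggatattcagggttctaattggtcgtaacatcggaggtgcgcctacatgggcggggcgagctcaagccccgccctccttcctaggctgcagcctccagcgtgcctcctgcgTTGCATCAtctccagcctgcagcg
Slc6a9: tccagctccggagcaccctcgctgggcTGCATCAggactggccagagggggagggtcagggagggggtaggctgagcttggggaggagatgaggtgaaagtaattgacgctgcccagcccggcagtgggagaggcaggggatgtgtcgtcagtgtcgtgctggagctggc
Slc43a1: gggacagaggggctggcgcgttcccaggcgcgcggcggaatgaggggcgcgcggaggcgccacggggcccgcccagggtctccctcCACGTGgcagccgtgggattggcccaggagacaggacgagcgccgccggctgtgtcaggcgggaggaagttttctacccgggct

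The CD98 heavy chain fell, and its main light chain changed by less and did not pass the test under the main settings. Slc3a2, which carries the light chains to the cell surface, had 308, 306 and 323 TMM-scaled CPM in ctrl-Treg libraries against 222, 212 and 221 CPM in Sora-Treg libraries. Every Sora-Treg library was below every ctrl-Treg library, and the log2 fold change was -0.52 ± 0.03 (± SE, adjusted p by edgeR = 1.16e-12). Slc7a5, the leucine exchanger, had 353, 357 and 347 CPM against 342, 328 and 343 CPM. These groups were close without touching, and the log2 fold change of -0.06 ± 0.03 (± SE, adjusted p by edgeR = 0.0709) did not pass. It passed as lower under 5 of the 17 alternatives, with the upper quartile (-0.0971), library totals (-0.17), genes kept from 1 count upwards (-0.0741) and limma on both FPKM scales (-0.17). Slc7a6, which exchanges cationic for neutral amino acids, had 77.4, 79.0 and 80.8 CPM against 80.7, 72.3 and 79.6 CPM, with overlapping groups and a log2 fold change of -0.03 ± 0.04 (± SE, adjusted p by edgeR = 0.605). Its neighbour Slc7a6os had 45.2 and 44.8 CPM. The remaining light chains were scarce. Slc7a7 and Slc7a8 had log2 fold changes of -0.72 ± 0.33 and -0.65 ± 0.55 (± SE, adjusted p by edgeR = 0.0627 and 0.322) on at most 54 and 13 counts. Slc7a7 overlaps the more abundant Oxa1l, which had a log2 fold change of -0.18. Slc7a7 passed as lower under 4 of the 15 alternatives that tested it. These were the upper quartile, library totals, a CPM of at least 1 in 3 samples, and Sora-Treg library 2 left out, at -1.14. Slc3a1, the heavy chain of other partners known from kidney and gut, had 0.26 ± 0.27 (± SE, adjusted p by edgeR = 0.414).

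Levels of different genes were compared per length, as the deposited FPKM values. Slc3a2 stood at 0.288, 0.283 and 0.305 of the summed FPKM of Slc7a5, Slc7a6, Slc7a7, Slc7a8 and Slc7a10 in ctrl-Treg libraries against 0.213, 0.214 and 0.213 in Sora-Treg libraries. This transcript ratio was lower in each Sora-Treg library, and it does not depend on how libraries are scaled. The light chain Slc7a11, which the symbol rule leaves out, is not in that sum. Slc7a5 held most of the sum, and its share was alike in the groups, at 0.937 ± 0.00185 in ctrl-Treg against 0.938 ± 0.000810 in Sora-Treg cells (each ± SD over n = 3 libraries).

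Among the cationic transporters, Slc7a1 and Slc7a3 both fell, by different amounts. Slc7a1, the widespread arginine and lysine importer, had 318, 329 and 319 CPM in ctrl-Treg and 205, 213 and 220 CPM in Sora-Treg libraries, a log2 fold change of -0.60 ± 0.03 (± SE, adjusted p by edgeR = 8.64e-14). Slc7a3, a relative with the same cargo known mainly from brain, had 65.4, 70.6 and 67.5 CPM against 11.1, 10.4 and 11.7 CPM. Its lowest ctrl-Treg value was thus far above its highest Sora-Treg value, and the log2 fold change was -2.61 ± 0.06 (± SE, adjusted p by edgeR = 3.26e-20), or 6.11-fold lower. Slc7a3 overlaps Snx12, whose level was 44.2 CPM in ctrl-Treg against 46.0 CPM in Sora-Treg cells. Per length, Slc7a3 stood at 0.284 ± 0.00606 of Slc7a1 in ctrl-Treg against 0.0701 ± 0.00368 in Sora-Treg cells (each ± SD over n = 3 libraries). Slc7a2, the form known for feeding nitric oxide synthesis in macrophages, had 0.508, 0.687 and 0.219 CPM against 0.890, 0.690 and 1.18 CPM. Its log2 fold change of 0.95 ± 0.41 (± SE, adjusted p by edgeR = 0.0538) did not pass, and it passed with robust fitting and without ctrl-Treg library 2 or Sora-Treg library 2. With ctrl-Treg libraries 1 and 2, which held the most myeloid transcripts, left out together, the log2 fold change of Slc7a2 was 2.05. The part of myeloid cells in its ctrl-Treg level was not tested. Slc7a4, a relative with no settled cargo, had -0.37 ± 0.23 (± SE, adjusted p by edgeR = 0.171), and passed without ctrl-Treg library 1, at -0.57.

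In the Slc43 family, Slc43a1 and Slc43a3 were DEGs and Slc43a2 did not pass. Slc43a1, a sodium-independent carrier of branched-chain amino acids, had 5.71, 6.07 and 6.23 CPM in ctrl-Treg libraries against 1.81, 1.22 and 1.57 CPM in Sora-Treg libraries. This was 3.90-fold lower, with a log2 fold change of -1.97 ± 0.18 (± SE, adjusted p by edgeR = 1.85e-09). Slc43a1 overlaps D930003E18Rik, whose highest count was 7. Slc43a2, which carries the same kind of cargo, had 53.3, 50.7 and 49.9 CPM against 46.1, 49.5 and 47.6 CPM. The groups were apart by less than the range within them, and the log2 fold change of -0.10 ± 0.05 (± SE, adjusted p by edgeR = 0.0647) did not pass. It did pass with libraries scaled by their totals or with the upper quartile, without Sora-Treg library 2, and by limma on both FPKM scales. Slc43a3, which carries purine bases, had 97.4, 96.1 and 106 CPM against 45.1, 44.7 and 45.2 CPM, a log2 fold change of -1.15 ± 0.04 (± SE, adjusted p by edgeR = 4.21e-16).

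The neutral amino acid exchangers of the Slc1 family both fell. Slc1a5, which takes up glutamine, was the most abundant member per length, and had 429, 439 and 434 CPM in ctrl-Treg and 335, 322 and 326 CPM in Sora-Treg libraries. Its log2 fold change was -0.41 ± 0.03 (± SE, adjusted p by edgeR = 9.57e-12), which is 1.32-fold lower. Slc1a4, which exchanges serine, alanine and cysteine, and whose start site holds the motif printed above, had 56.6, 58.3 and 55.7 CPM against 31.8, 30.6 and 28.3 CPM. The fall of Slc1a4 was larger on the log2 scale, at -0.91 ± 0.05 (± SE, adjusted p by edgeR = 5.72e-13), and per length its ratio to Slc1a5 was 0.0924 ± 0.00173 in ctrl-Treg against 0.0651 ± 0.00334 in Sora-Treg cells (each ± SD over n = 3 libraries). Of the glutamate transporters of the same family only Slc1a1, the form found in neurons and epithelia, was tested. It had 6, 3 and 8 counts in ctrl-Treg and 14, 15 and 13 counts in Sora-Treg libraries, and thus passed the filter only through the group in which it is high. The ratio of the summed counts, scaled by library size, was 2.72 (95% exact counting interval 1.52 to 5.10, counting error only). The edgeR call (log2 fold change 1.42 ± 0.54, SE, adjusted p by edgeR = 0.0265) was lost when ctrl-Treg library 1 or 2, or Sora-Treg library 1 or 2, was left out (1.11 to 1.39 in those fits). It was also lost with genes kept from 1 count upwards (adjusted p by edgeR = 0.0673) and with DESeq2 (adjusted p = 0.0864). With ctrl-Treg libraries 1 and 2 left out together, the log2 fold change was 0.78.

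The Slc38 family, sodium-coupled carriers of glutamine and alanine, went both ways. Slc38a1, a plasma membrane importer, had 223, 213 and 225 CPM in ctrl-Treg and 174, 186 and 184 CPM in Sora-Treg libraries, a log2 fold change of -0.28 ± 0.03 (± SE, adjusted p by edgeR = 1.59e-07). Slc38a2, an importer known to be induced by amino acid shortage, had 256, 264 and 248 CPM against 270, 284 and 276 CPM. The groups did not overlap, and the log2 fold change was 0.11 ± 0.03 (± SE, adjusted p by edgeR = 0.00303), but with libraries scaled by their totals it was -0.00216 and did not pass, so the direction depends on the scaling. Per length, Slc38a1 stood at 0.454 ± 0.0264 of Slc38a2 in ctrl-Treg against 0.344 ± 0.00655 in Sora-Treg cells (each ± SD over n = 3 libraries), a ratio that scaling does not touch. Slc38a10 had 104, 106 and 102 CPM against 118, 122 and 113 CPM, with a log2 fold change of 0.18 ± 0.04 (± SE, adjusted p by edgeR = 2.67e-04), a call that was lost with libraries scaled by their totals, at 0.0610.

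Of the Slc38 members known from the lysosome, Slc38a7 was lower and Slc38a9 did not pass. Slc38a9, which reports lysosomal arginine to mTORC1, had 43.8, 44.7 and 46.6 CPM in ctrl-Treg and 45.8, 49.6 and 46.7 CPM in Sora-Treg libraries. Its groups overlapped, and the log2 fold change of 0.07 ± 0.05 (± SE, adjusted p by edgeR = 0.204) did not pass and turned to -0.0418 with libraries scaled by their totals. Slc38a7, which exports glutamine from lysosomes, had -0.41 ± 0.07 on the log2 scale (± SE, adjusted p by edgeR = 5.30e-05). Outside this pair, Slc38a6 had -0.89 ± 0.09 (± SE, adjusted p by edgeR = 1.94e-08). Slc38a6 overlaps Trmt5, which had a log2 fold change of -0.32. Slc38a3, a carrier of glutamine and histidine known from liver, kidney and brain, had 2, 0 and 3 counts in ctrl-Treg and 19, 24 and 12 counts in Sora-Treg libraries. It passed the filter only through the Sora-Treg libraries. The ratio of summed counts was 12.1 (95% exact counting interval 4.89 to 38.8, counting error only). The log2 fold change was 3.51 ± 0.69 (± SE, adjusted p by edgeR = 1.49e-04), and 2.95 to 4.25 with any single library left out. Since Slc38a3 was admitted by the group in which it is high, these values are a description and nothing is read from the call.

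None of the 3 tested genes of the Slc36 family, proton-coupled carriers of small amino acids, passed the test. Slc36a1 at the lysosome and Slc36a4 had log2 fold changes of -0.07 ± 0.08 and -0.11 ± 0.08 (± SE, adjusted p by edgeR = 0.491 and 0.252). Both passed as lower with libraries scaled by their totals, and Slc36a4 also by limma on both FPKM scales. Slc36a3 had 8, 15 and 10 counts in ctrl-Treg and 1, 12 and 1 counts in Sora-Treg libraries, where Sora-Treg library 2 stood with the controls. Its log2 fold change of -1.08 ± 0.71 (± SE, adjusted p by edgeR = 0.198) became -3.20, and passed, without that library. Slc36a3 overlaps Slc36a3os, whose highest count was 37, with a log2 fold change of -1.38.

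In the Slc6 family, sodium- and chloride-coupled carriers, the taurine transporter rose and the glycine transporter fell. Slc6a6, the taurine transporter, had 151, 151 and 147 CPM in ctrl-Treg and 197, 200 and 198 CPM in Sora-Treg libraries. Its log2 fold change was 0.40 ± 0.03 (± SE, adjusted p by edgeR = 8.89e-11), with alternatives between 0.28 and 0.43. Slc6a6 was the one abundant member that kept a higher call under every alternative. Slc38a10 kept its direction under all of them (0.06 to 0.21) but not its call. Slc6a9, which takes up glycine, had 46.1, 46.0 and 38.8 CPM against 14.2, 14.3 and 16.4 CPM. This was 2.92-fold lower, with a log2 fold change of -1.54 ± 0.08 (± SE, adjusted p by edgeR = 3.42e-14). Ccdc24, which overlaps Slc6a9, had at most 13 counts in any library. Slc6a8, the creatine transporter, was lower by -0.54 ± 0.19 (± SE, adjusted p by edgeR = 0.0186), a call lost without ctrl-Treg library 1 or Sora-Treg library 3. Over all alternatives its log2 fold change ran from -0.66 to -0.27. Slc6a19, a neutral amino acid carrier of gut and kidney, had 2, 17 and 5 counts in ctrl-Treg and 17, 20 and 24 counts in Sora-Treg libraries, so that ctrl-Treg library 2 reached the lowest Sora-Treg count. It too passed the filter only through the Sora-Treg libraries. The ratio of summed counts was 2.80 (95% exact counting interval 1.72 to 4.69, counting error only, which leaves out the spread between libraries). Its edgeR call (log2 fold change 1.46 ± 0.54, SE, adjusted p by edgeR = 0.0240) was lost without ctrl-Treg library 1 or 3 or Sora-Treg library 3 (0.96 to 1.40 in those fits) and with DESeq2 (adjusted p = 0.0581). Without ctrl-Treg library 2 it was 2.60.

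**Figure D2:**
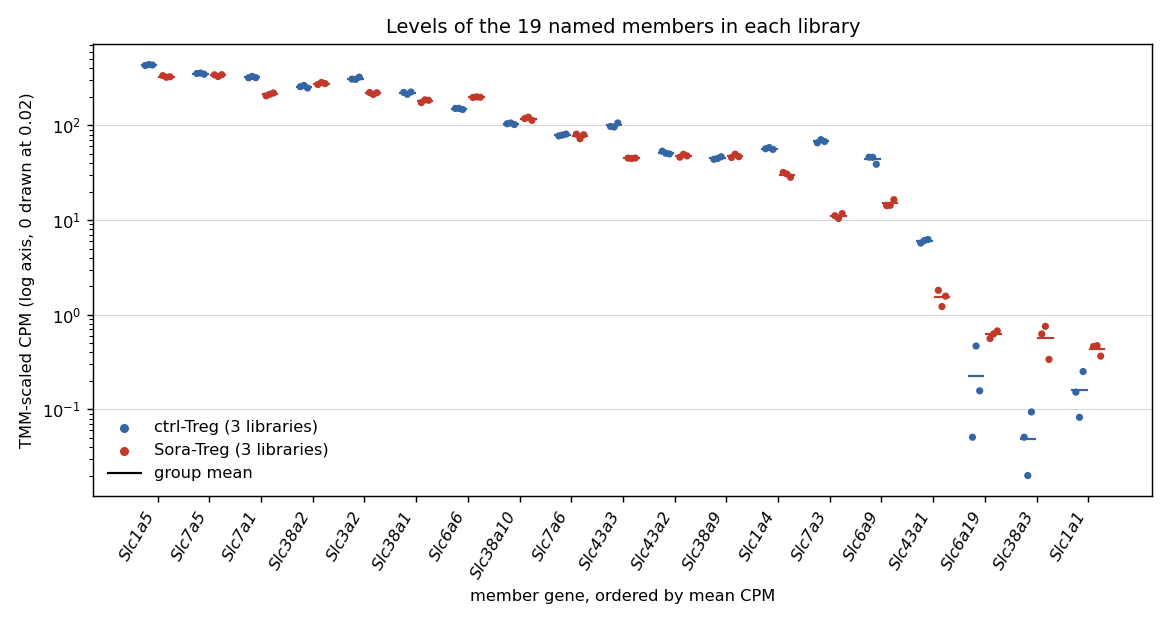
TMM-scaled CPM on a log axis is shown for the 19 members with a mean of at least 20 CPM or a DEG call, with 1 point per library, blue for ctrl-Treg and red for Sora-Treg, and a line at each group mean. The points of a group lie close together down to Slc43a1 and spread out for Slc6a19, Slc38a3 and Slc1a1, where levels are below 1 CPM.

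The remaining 18 genes did not pass the filter and were not tested. Slc7a10, a light chain for small neutral amino acids, had 11, 18 and 6 counts in ctrl-Treg and 0, 4 and 2 counts in Sora-Treg libraries. Slc38a4, known from liver and placenta, had 1, 0 and 0 counts against 14, 2 and 6. Slc6a12, a betaine transporter, had 8, 11 and 2 counts against 0, 1 and 1, and Slc6a13, which carries GABA and taurine, had 2, 6 and 1 against 7, 9 and 8. Slc1a3, a glutamate transporter of glia, had 8, 7 and 0 counts in ctrl-Treg libraries against 0 in every Sora-Treg library. Its counts were thus confined to the 2 libraries with the highest myeloid sum, and the part of myeloid cells in them was not tested. Slc6a21 and Slc6a17 reached 11 and 4 counts, and Slc1a2 and Slc6a3 reached 2. The other 9 (Slc1a7, Slc36a2, Slc38a5, Slc38a8, Slc38a11, Slc6a4, Slc6a5, Slc6a16 and Slc7a14) had at most 1 count in any library, which is below the floor of 3 counts.

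Summed over the 48 genes, transporter transcripts took 2687 ± 15.6 TMM-scaled CPM in ctrl-Treg against 2218 ± 11.5 CPM in Sora-Treg cells (each ± SD over n = 3 libraries), a change of -17.5%. Slc7a1, Slc1a5, Slc3a2, Slc7a3 and Slc43a3 gave the 5 largest falls, -421 CPM together of -557 CPM over all falling members, while rising members added 87.8 CPM, of which Slc6a6 gave 48.4 CPM. Per length, the summed FPKM was 575, 581 and 574 in ctrl-Treg and 435, 431 and 435 in Sora-Treg libraries, a change of -24.7%. FPKM is scaled by library totals, without TMM, so this change is not on the same scale as that of the summed CPM. The first 8 genes held 83.4% ± 0.205 of the summed FPKM in ctrl-Treg against 85.4% ± 0.261 in Sora-Treg cells (each ± SD over n = 3 libraries), so few genes made most of the total in both groups.

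In Sora-Treg cells Slc7a5, Slc38a2 and Slc6a6 made up more of that total. Slc7a5 went from 18.1% ± 0.173 to 21.3% ± 0.439 of the summed FPKM, Slc38a2 from 9.90% ± 0.249 to 13.1% ± 0.377, and Slc6a6 from 3.78% ± 0.0524 to 6.13% ± 0.0708 (each ± SD over n = 3 libraries). The shares of Slc1a5 (28.3% ± 0.152 to 26.2% ± 0.494), Slc7a1 (7.87% ± 0.0798 to 6.38% ± 0.207), Slc3a2 (5.64% ± 0.188 to 4.84% ± 0.0965) and Slc43a3 (5.35% ± 0.313 to 2.96% ± 0.00587) were smaller. Slc38a1 held 4.49% ± 0.164 and 4.52% ± 0.174, within the spread of the libraries. Slc1a5 ranked first and Slc7a5 second in both groups.

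**Figure D3:**
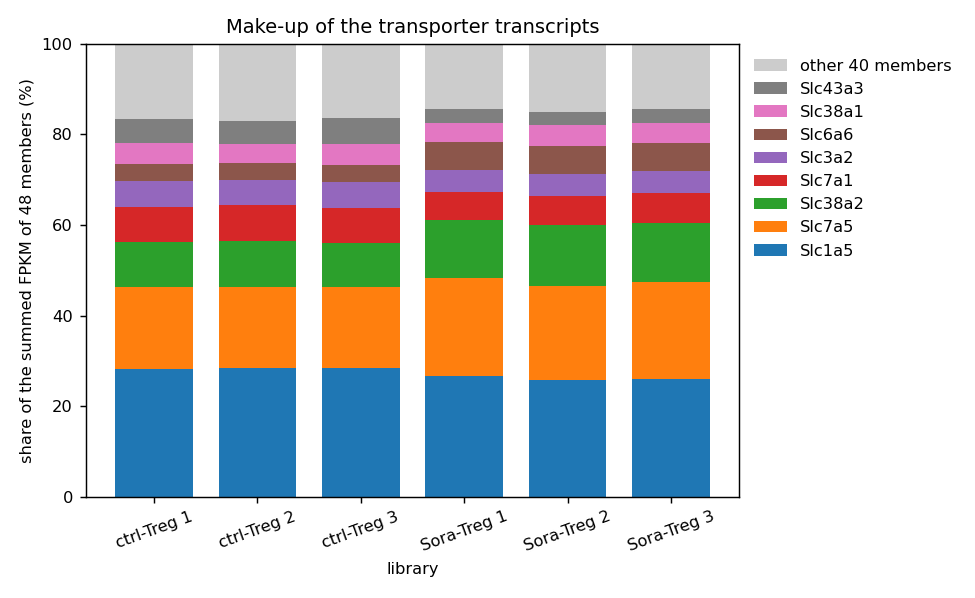
Each bar is 1 library and shows the share of the summed FPKM of the 48 members, in percent, held by each of the 8 most abundant members and by the other 40. The Slc7a5, Slc38a2 and Slc6a6 segments are taller in the 3 Sora-Treg bars, and the Slc43a3 segment is thinner.

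Genes that handle amino acids outside these families were read from 4 lists. Of 8 tested transport genes outside the families, 3 were lower (37.5%) and 1 higher (12.5%), beside 29.9% and 29.7% of all tested genes. Slc16a10, a carrier of aromatic amino acids, fell from 16.7 to 8.09 CPM, which on the log2 scale is -1.04 ± 0.09, and the peptide and histidine carrier Slc15a3 was lower by -0.37 ± 0.08 (± SE, adjusted p by edgeR = 9.94e-10 and 2.32e-04). Slc17a7, a vesicular glutamate transporter, rose from 0.997 to 2.38 CPM, which on the log2 scale is 1.26 ± 0.26 (± SE, adjusted p by edgeR = 2.68e-04). Of 10 tested mitochondrial carriers, 4 were lower (40%) and 2 higher (20%), again beside 29.9% and 29.7% of all tested genes, and none was past 2-fold. The lower ones numbered 2 without ctrl-Treg library 2 or Sora-Treg library 3, and 1 without ctrl-Treg libraries 1 and 2. Sfxn2, a sideroflexin of the serine carrier family, had -0.58 ± 0.08, the aspartate and glutamate carrier Slc25a12 0.23 ± 0.04, and Sfxn3 0.19 ± 0.04 (± SE, adjusted p by edgeR = 1.73e-06, 4.40e-05 and 3.18e-04). Neither Slc25a12 nor Sfxn3 passed by limma on log2(FPKM + 1). The medians of these lists were -0.04 and -0.03 on the log2 scale, near that of all genes.

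The list for amino acid sensing at the lysosome holds a few sensors and many other parts of the path to mTORC1, and it also went both ways. Of 30 genes, 13 were lower (43.3%) and 7 higher (23.3%), with a median of -0.04, beside 29.9% lower and 29.7% higher of all genes. Without ctrl-Treg libraries 1 and 2, 8 were lower, beside 20.8% of all genes in that fit. The arginine sensor Castor1 rose from 18.4 to 49.9 CPM, which on the log2 scale is 1.44 ± 0.05, and the leucine sensor Sesn2 fell from 95.6 to 43.1 CPM, which on the log2 scale is -1.15 ± 0.05 (± SE, adjusted p by edgeR = 3.77e-16 and 5.78e-16). Both are known to restrain mTORC1 when their amino acid is scarce. Lars, the leucyl-tRNA synthetase, was lower by -0.54 ± 0.03 (± SE, adjusted p by edgeR = 1.77e-12). In the Gcn2 branch, 12 of 16 genes were lower (75%, beside 29.9% of all genes), 1 was higher and the median was -0.31. The list was chosen with earlier results of these data known, so this share is only a description. Eif2ak4, the gene of Gcn2 itself, Eif2a and Ddit3 did not pass, at 0.04, 0.04 and -0.07 (adjusted p by edgeR = 0.477, 0.359 and 0.214). Atf4 was lower by -0.11 ± 0.03 (± SE, adjusted p by edgeR = 0.00203). Asns, which makes asparagine, had a log2 fold change of -0.97 ± 0.04, the factor Atf5 -0.61 ± 0.04 and Chac1, which degrades glutathione, -1.43 ± 0.11 (± SE, adjusted p by edgeR = 1.41e-16, 8.22e-13 and 1.73e-10). Sesn2 is on both lists.

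**Figure D4:**
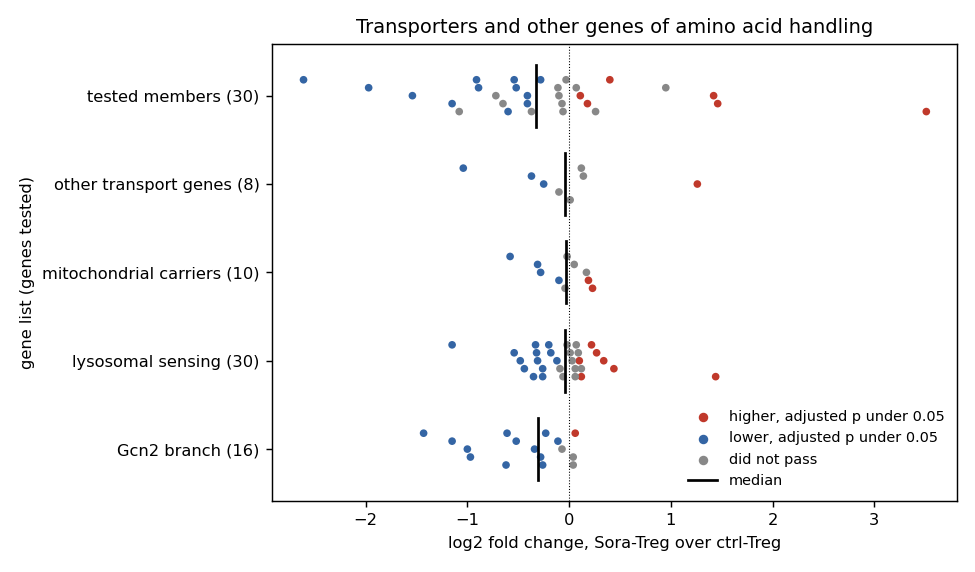
Each point is the log2 fold change of 1 tested gene, Sora-Treg over ctrl-Treg, for the 30 tested members and for 4 lists of other genes of amino acid handling, with a black bar at the median of each list. The medians are -0.33 for the members and -0.31 for the Gcn2 branch, and lie near 0 for the other 3 lists.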

How the data were processed

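RNA-seq of 3 ctrl-Treg and 3 Sora-Treg libraries, grouped by sample title, was analysed. The files deposited by the authors hold raw counts by gene symbol and FPKM values. Each FPKM value equals the count over the library total and over a fixed gene length (largest relative difference 9.27e-07). The methods of the study name Bowtie2 and GRCm38, whereas the submitters' processing notes list fastp, HISAT2, HTSeq and GRCm39, so the build of the counts was left unsettled, and the only coordinates given are those of RefSeq promoters, on the build of RefSeq. Whether counting used strand is not given in the sources used here, so overlapping genes are uncertain.

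The counts were tested with the quasi-likelihood test of edgeR 4.0.16 (R 4.3.3), after TMM scaling and filterByExpr, which kept 13463 genes, with Benjamini-Hochberg adjustment over all of them. SEs are those that the F statistic implies. DEGs also had to change by more than 1 on the log2 scale, beside an adjusted p below 0.05. CPM values are TMM-scaled. Intervals and floors cover counting error only, and p-values measure the spread between these libraries, which may be technical. Within groups, pairs of libraries differed by more than sampling noise (chi-square per degree of freedom 3.36 to 5.91).

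Values in every library are given for members with a mean of at least 20 CPM or a DEG call. From each list of other genes the 3 with the smallest adjusted p and any DEG are named. Per-library values of other members, Slc7a6os, the overlapping genes and Ddit4 were named after their values were seen. So were Eif2ak4, Eif2a, Ddit3, Atf4 and the single marker genes Il2ra, Ctla4, Foxp3 and Ikzf2. The members and lists were chosen with earlier results of these data known. Alternatives were other scalings and filters, DESeq2 1.42.0, robust fitting, a replicate block, each library left out, and limma 3.58.1 on log2 FPKM with a pseudocount of 1 or 0.1. Leaving out ctrl-Treg libraries 1 and 2 together was chosen after seeing the data. The tests were tried on simulated counts. RefSeq (GRCm38.p6) gave gene overlaps and promoters, and held all 48 symbols.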

Additional observations from a re-analysis of the deposited data

How the results depend on the processing

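Across 17 alternatives, 14 of the 30 tested members kept their direction and their side of the threshold wherever they were tested, among them Slc7a3, Slc43a1, Slc43a3, Slc6a9, Slc1a4, Slc1a5, Slc7a1, Slc3a2 and Slc6a6. Slc38a3 was also among the 14, but it passed the filter only through the Sora-Treg libraries, so nothing is read from its place there. The number of higher members was 3 with a CPM of at least 1 in 3 samples, and 1 by limma on either FPKM scale, and higher DEGs numbered 0 under all of these (0 also at an unadjusted p under 0.05), since those filters left the low genes untested. With genes kept from 1 count upwards, 7 members were lower DEGs, since Slc1a3, Slc6a12 and Slc7a10 were then tested. Leaving out 1 library gave 4 to 6 higher members, 1 to 3 higher DEGs (1 without ctrl-Treg library 1) and 4 to 7 lower DEGs (7 without Sora-Treg library 2). The same-numbered libraries gave no sign of pairing, with correlations of deviations of -0.0199, 0.0912 and 0.0486, and the replicate block left 6 members higher and 12 lower, with 3 and 4 DEGs.

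Signs turned for small changes. Slc38a2 was at -0.00216 under scaling by library totals, and at -0.00168 and -0.00171 on log2(FPKM + 1) and log2(FPKM + 0.1). Slc38a9 was -0.0418, -0.0345 and -0.0420 in the same order. With 1 library left out, Slc36a1 ran from -0.11 to 0.00983 (without Sora-Treg library 1) and Slc7a6 from -0.0536 to 0.0223 (without Sora-Treg library 2), and Slc3a1 was -0.0851 with ctrl-Treg libraries 1 and 2 left out together. FPKM is scaled by library totals by construction. For the remaining turns of sign the cause was not tested.

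Among the other lists, transport genes outside the families had 2 higher with DESeq2 or with genes kept from 1 count upwards. Mitochondrial carriers had 1 higher with library totals and 0 by limma on either FPKM scale (1 at an unadjusted p under 0.05), and 2 lower with DESeq2, 1 lower without ctrl-Treg libraries 1 and 2, and 2 to 3 lower with 1 library left out (2 without ctrl-Treg library 2 or Sora-Treg library 3). Lysosomal sensing had 4 higher by limma and 8 lower without ctrl-Treg libraries 1 and 2. The single higher gene of the Gcn2 branch, Ddit4, was lost (0 higher) with upper quartile or library-total scaling, with genes kept from 1 count upwards, by limma and without ctrl-Treg libraries 1 and 2, and the count was 0 to 1 with 1 library left out. In these fits 0 genes of that branch were higher at an unadjusted p under 0.05, other than 1 without Sora-Treg library 2 or 3. Genes with under about 20 counts have imprecise folds at this depth.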
